A study of Mus musculus with 15 samples.

Results

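The common gamma chain cytokine receptors were read here as 8 genes: Il2rg, which encodes the shared chain itself, and Il2rb, Il2ra, Il15ra, Il7r, Il4ra, Il21r and Il9r, which encode the chains that pair with it. They were chosen by gene name, with no measured value in the choice, and are 8 of the 34816 gene names on the array. They carry 11 of its 55681 probes, 1 probe each for 5 genes and 2 probes each for Il4ra, Il9r and Il15ra. Their signal was measured on 15 one-colour Agilent arrays, each hybridised with amplified, Cy3-labelled cDNA of CD4 T cells that had been sorted by flow cytometry from the small intestinal lamina propria, the layer beneath the gut epithelium. The groups were male mice at day 10 of a high-fat diet, male mice at day 30 of that diet and male control mice on normal chow, with 5 arrays each. The labels name no strain, age, make-up of the diet or day for the controls, so days on the diet cannot be told apart from age or time in the experiment. The series title speaks of prediabetic and diabetic mice, and the question put to the receptors is whether their transcripts differ after a shorter or a longer time on the diet. The labels do not state whether separate animals gave the 5 samples of each group, so p-values here measure the spread among samples and this spread may be technical.

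The common gamma chain does not signal alone. Each cytokine of the family, IL-2, IL-4, IL-7, IL-9, IL-15 and IL-21, is recognised by a private chain that joins the common chain, and for IL-2 and IL-15 a further shared beta chain joins both. The common chain carries the kinase JAK3. JAK1 is carried by the beta chain for IL-2 and IL-15 and by the private chain for the other cytokines. Both kinases phosphorylate STAT proteins that enter the nucleus. In T cells IL-7 and IL-15 are best known for survival and homeostatic division, IL-2 for the expansion of activated cells and the upkeep of regulatory T cells, IL-4 for the Th2 programme, and IL-21 for follicular help and support of Th17 cells.

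The probes of 2 receptors differed from the others in their letters, and these sequences are shown because the results for both genes depend on which probe is read. The probe of higher mean signal for Il15ra, at chr2:11655416-11655475 on the plus strand of build mm9, and that for Il4ra, at chr7:132712550-132712609 on the plus strand, each hold an unbroken run of the unit TG. The dimmer probes of the same genes, at chr2:11654809-11654868 and chr7:132722922-132722981 on the plus strand, do not, and neither do the probes of the shared chain Il2rg, at chrX:98460130-98460189 on the minus strand, or of Il21r, at chr7:132776725-132776784 on the plus strand. From each probe of 60 bases a stretch of 30 is printed as the scanner files give it, with the run of TG units in capitals.
Il15ra, brighter probe, bases 25 to 54: atatgtaTGTGTGTGTGTGTGTGtatgtaa
Il15ra, dimmer probe, bases 16 to 45: taccaatgactgtgagggccagcagcaagg
Il4ra, brighter probe, bases 15 to 44: tgccagcacTGTGTGTGTGTGccacatgga
Il4ra, dimmer probe, bases 16 to 45: caaccctcaccagtcccatctcttcattct
Il2rg, bases 16 to 45: ggaacctcaaagtcctatagtcctaagtga
Il21r, bases 16 to 45: gttccttaatttaataccattggttaaata

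The run was 16 bases long in the brighter Il15ra probe and 12 in the brighter Il4ra probe, and at most 4 in the other 9 receptor probes. Runs of 10 or more bases of TG units were in 176 of the 55681 probes, or 0.316%. Spot signal on this array went with the length of the run. On the scale used throughout, log2 of the processed signal minus the 75th percentile of the same array, probes with a run of at most 6 bases had a median of -3.00 (n = 55315 probes). The medians were 0.34 at 8 bases (n = 190), 3.21 at 10 (n = 61), 6.27 at 12 (n = 27), 8.76 at 14 to 16 (n = 33) and 10.02 at 18 or more (n = 55). The spread between arrays of a group was narrower in the probes with long runs: its median SD was 1.45 where runs were at most 6 bases and 0.30 where they were 14 to 16. These classes also differ in signal, with 26.1% and 100% of their probes well above background on all 15 arrays. Spread at like signal was not compared. All values of this paragraph are signals of spots that bind different sequences, not transcript levels. The part that the run has in the signal of Il15ra and Il4ra was not tested beyond the comparisons given with these genes.

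**Figure D1:**
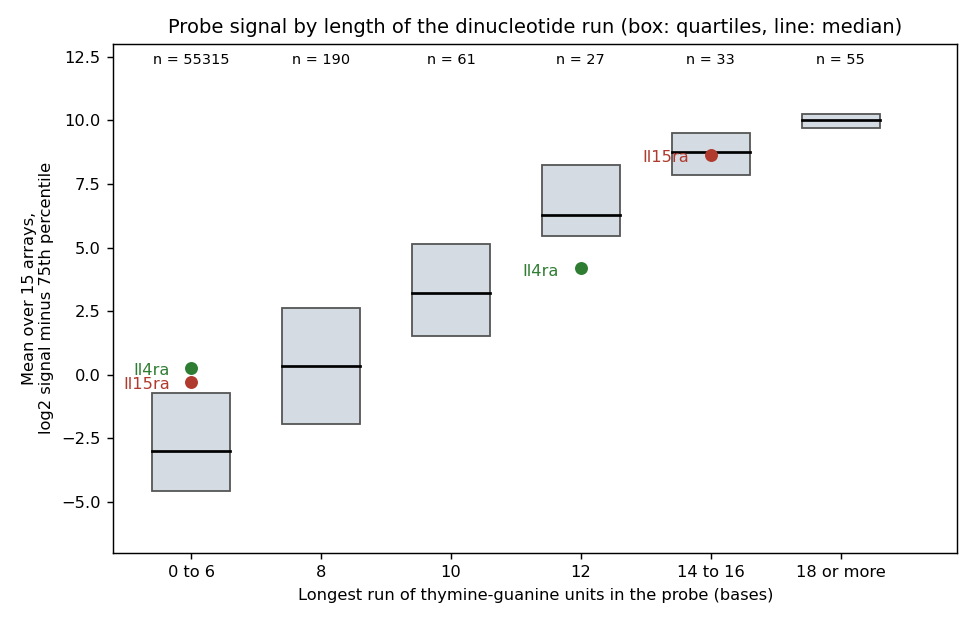
Mean signal over 15 arrays (vertical axis, log2 minus the array's 75th percentile) of all probes, grouped by the longest run of thymine-guanine units in the probe (horizontal axis, bases); boxes span the quartiles, lines are medians, and n is the number of probes. The points are both probes of Il15ra (red) and both of Il4ra (green). The medians rise from -3.00 to 10.02 with the length of the run, and the brighter Il15ra probe lies close to the median of its class, whereas the brighter Il4ra probe lies below the lower quartile of its own, 5.44.

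Of the 15 arrays, 45.3% to 82.0% of the spots were well above background. The share averaged 58.5% ± 2.91 (SD, n = 5) at day 10, 51.3% ± 5.46 (SD, n = 5) at day 30 and 63.8% ± 11.96 (SD, n = 5) in control. Two-sided exact permutation tests, adjusted over the 3 comparisons, gave p = 0.421 between day 10 and control, and 0.0833 both between day 30 and control and between day 30 and day 10. Control replicate 1 had the highest share and day 30 replicate 3 the lowest. Slide 1 held day 10 replicates 1 to 3 and all controls, and slide 2 held day 10 replicates 4 and 5 and all day 30 arrays, so no slide held both day 30 and control arrays. The cells carried T cell transcripts: all 8 genes of the T cell marker list were well above background on all 15 arrays, and Cd4 averaged 3.68 ± 0.41 at day 10, 4.12 ± 0.76 at day 30 and 3.31 ± 0.55 in control (SD, n = 5 each). Detection on all 15 arrays was not particular to that list. It held for 3 of 6 tested B cell and plasma cell markers, 4 of 7 macrophage and dendritic cell markers and 2 of 7 epithelial markers. In bulk samples of this kind, fewer cells of a type and less RNA per cell cannot be told apart.

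The receptors were detected to different degrees. All 8 genes passed the filter for testing, which asks that the brightest probe be well above background on 5 or more arrays, and for 6 of them that probe was well above background on all 15. The exceptions were Il2ra and Il9r, each well above background on 9 arrays. The second probes of Il4ra and Il15ra were also above background on all 15 arrays, whereas that of Il9r was so on 2.

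None of the receptors changed by the test used. Group means were fitted with limma over 25997 genes, and 0 of 25997 genes, or 0%, and 0 of the 8 receptors had an adjusted p under 0.05 for day 10 against control. The same held for day 30 against control, with 0% of genes and 0 receptors, and for day 30 against day 10, with 0% of genes and 0 receptors. The smallest adjusted p-values of any gene were 0.704, 0.367 and 0.432 in these limma comparisons. At an unadjusted p under 0.05 there were 0 receptors with day 10 above control, where 0.889% of genes were, 3 with day 30 above control, where 2.47% were, and 1 with day 30 above day 10, where 1.82% were. In the other direction there were 0 in each, against 1.7%, 2.67% and 2.29% of genes. The values below are therefore given as levels and differences with their errors, in the order of the receptors' roles, and in each list of 5 values the replicates run from 1 to 5.

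Il2rg encodes the common gamma chain. Its levels were 4.77, 4.52, 4.25, 5.10 and 3.89 at day 10, 4.63, 5.45, 4.30, 5.03 and 5.00 at day 30, and 2.12, 3.49, 5.30, 4.01 and 4.47 in control. Control replicate 1 was the lowest of the 15 arrays, 3 control arrays lay below every day 30 array, and control replicate 3 lay above all but 1 of them, so the groups overlapped. The mean was 4.51 ± 0.46 at day 10, 4.88 ± 0.44 at day 30 and 3.88 ± 1.19 in control (SD, n = 5 each). The difference from control was 0.63 at day 10 (SE 0.47, limma adjusted p = 1.00) and 1.00 at day 30 (SE 0.47, 95% interval 0.01 to 2.00), a ratio of 2.01 (limma adjusted p = 0.927). Day 30 was 0.38 above day 10 (SE 0.47, limma adjusted p = 0.999). Without control replicate 1 the day 10 difference was 0.19 and the day 30 difference 0.56, and without control replicate 3 they were 0.98 and 1.36.

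Il2rb encodes the beta chain that IL-2 and IL-15 share. Its probe lies at chr15:78311109-78311168 on the minus strand. Levels were 6.57, 6.77, 6.57, 7.12 and 6.51 at day 10, 7.24, 6.47, 7.98, 5.98 and 7.14 at day 30, and 5.23, 5.99, 7.54, 6.71 and 6.83 in control. Day 30 held the highest array of the 15, replicate 3, and also the second lowest, replicate 4, and the day 10 arrays lay inside the range of the controls. The means were 6.71 ± 0.25, 6.96 ± 0.77 and 6.46 ± 0.88 at day 10, day 30 and in control (SD, n = 5 each). The differences from control, 0.25 at day 10 and 0.51 at day 30 (SE 0.40 each), were smaller than the spread within the control group (limma adjusted p = 1.00 and 0.944). Without control replicate 1 they were -0.058 and 0.20, and without control replicate 3 they were 0.52 and 0.78.

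Il2ra encodes CD25, the alpha chain that turns the IL-2 receptor into its high-affinity form and that regulatory T cells carry at high levels. Its probe, at chr2:11614744-11614803 on the plus strand, was well above background on 3 of 5 arrays in each group. Levels were -5.82, 0.31, 0.34, -4.96 and 0.41 at day 10, -4.17, 0.97, 2.72, -4.59 and 1.13 at day 30, and -4.64, -0.23, 2.11, -6.18 and 0.79 in control. The 15 arrays thus fell into 9 detected ones, between -0.23 and 2.72, and 6 not well above background, between -6.18 and -4.17, with replicates 1 and 4 on the low side in all 3 groups. No array lay in the gap of 3.94 between them. Day 30 lay above the day 10 and the control array of the same replicate number in all 5 cases, though the labels do not say that a number marks a shared source, and values not well above background have no sure order. In the fit, which takes no account of these numbers, the difference from control was -0.32 at day 10 and 0.84 at day 30 (SE 1.90 each), and the 95% interval at day 30 ran from -3.18 to 4.86 (limma adjusted p = 0.989). This interval is wide enough to hold differences of the size seen in the other receptors, in either direction.

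Il15ra encodes the alpha chain that binds IL-15 and can present it to neighbouring cells. Its brighter probe, the one with the TG run, gave 8.33, 8.45, 8.86, 8.62 and 8.64 at day 10, 9.10, 8.57, 9.27, 8.53 and 8.49 at day 30, and 8.74, 8.58, 8.76, 8.49 and 8.34 in control. Day 30 replicates 1 and 3 were the highest of the 15 arrays, and the other day 30 arrays lay inside the range of the controls. Replicates 1 and 3 of day 30 also had the lowest 75th percentiles of the 15 arrays, 7.43 and 7.09 in log2, and subtracting a low percentile raises the level. The difference from control was -0.00 at day 10 and 0.21 at day 30 (SE 0.17 each, limma adjusted p = 1.00 and 0.946). In the deposited value table the day 30 difference was -0.23. Among all 55681 probes, 149 were brighter on average.

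The dimmer Il15ra probe gave -1.47, 0.95, 0.56, -0.37 and -1.08 at day 10, -0.53, -0.09, 2.40, 0.91 and -1.76 at day 30, and -0.07, 1.84, -1.45, -2.06 and -2.09 in control. The groups overlapped widely on this probe, and its differences from control were 0.48 at day 10 and 0.95 at day 30 (SE 0.88 each, limma adjusted p over all probes tested = 1.00 and 0.965). Across the 15 arrays, with each group's mean removed, the brighter probe followed the mean of the 87 probes with a TG run of 14 bases or more, a mean that leaves out the receptor probes, at a Pearson r of 0.988 and a Spearman rho of 0.936. The dimmer probe did so at 0.457 and 0.382. Permutation p-values for the Pearson correlations, from 100000 shuffles within groups and adjusted over the 12 relations examined, were 0.00024 for the brighter probe and 0.202 for the dimmer one. Leaving out day 30 replicates 1 and 3, the arrays farthest from the median, left r at 0.984 for the brighter probe, and within slide 1 and slide 2 it was 0.993 and 0.985. The group means removed for these r were still those of all 5 arrays. Both sides of these correlations had the same percentile subtracted, which in log2 ran from 7.09 on day 30 replicate 3 to 8.28 on control replicate 5. Such a shared term alone can make bright, steady probes rise and fall together, so r and its p-value do not measure a tie to the run. The brighter Il15ra probe and the dimmer one ranked the arrays differently.

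Il7r encodes the IL-7 receptor alpha chain, which naive and memory T cells carry and which IL-7 signalling lowers. Its probe is at chr15:9435976-9436035 on the minus strand. Levels were 2.58, 1.51, 1.96, 2.33 and 2.01 at day 10, 3.17, 1.47, 3.41, 1.90 and 2.64 at day 30, and -0.61, 1.69, 3.69, 1.55 and 1.93 in control. The control group held both the lowest array of the 15 and the highest. Means were 2.08 ± 0.41 at day 10, 2.52 ± 0.82 at day 30 and 1.65 ± 1.53 in control (SD, n = 5 each), with differences from control of 0.43 and 0.87 (SE 0.63 each, limma adjusted p = 1.00 and 0.933). Without control replicate 1 these were -0.14 and 0.30, and without control replicate 3 they were 0.94 and 1.38.

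Il4ra encodes the chain that binds IL-4 and, with Il13ra1, also serves IL-13. On its brighter probe the levels were 4.10, 3.21, 4.17, 4.03 and 4.02 at day 10, 5.56, 4.57, 5.15, 3.76 and 4.52 at day 30, and 3.87, 4.35, 4.03, 3.40 and 3.89 in control. Of the day 30 arrays, 4 lay above every day 10 and control array, and replicate 4 lay among them. The mean was 3.91 ± 0.39 at day 10, 4.71 ± 0.68 at day 30 and 3.91 ± 0.34 in control (SD, n = 5 each). Day 30 was 0.81 above control (SE 0.34, 95% interval 0.09 to 1.52, limma adjusted p = 0.927) and 0.81 above day 10 (SE 0.34, limma adjusted p = 0.999). Day 10 and control did not differ beyond their spread, at -0.00 with a 95% interval of -0.72 to 0.72.

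The dimmer Il4ra probe, which lies further along the transcript, did not follow this order. It gave 1.48, 0.40, 1.76, 0.97 and 0.02 at day 10, 2.69, 2.06, -2.47, -1.15 and 0.37 at day 30, and -0.11, -2.80, -0.70, 0.72 and 0.90 in control. Day 30 replicate 3 was the second highest array on the brighter probe and the second lowest on this one. The differences from control were 1.32 at day 10 and 0.70 at day 30, and day 30 was 0.63 below day 10, a log2 difference of -0.63 (SE 0.93 each, limma adjusted p over all probes tested = 1.00, 0.981 and 0.999). With each group's mean removed, the brighter probe had a Pearson r of 0.634 with the mean of the TG-run probes and the dimmer one -0.268 (rho 0.661 and -0.161, permutation p = 0.110 and 0.520 after adjustment over the 12 relations). Without day 30 replicates 1 and 3 these r were 0.515 and -0.157, and for the brighter probe r was 0.382 within slide 1 and 0.761 within slide 2. As with Il15ra, the probes and the mean share the subtracted percentile, so these r do not measure a tie to the run. Probes with a run of 12 bases, the length in the brighter Il4ra probe, had a median difference of 0.23 between day 30 and control (n = 27 probes), and those of at most 6 bases -0.02.

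Il21r encodes the private chain for IL-21. Its levels were 6.49, 6.35, 6.27, 7.15 and 6.93 at day 10, 7.59, 6.93, 7.89, 6.46 and 6.82 at day 30, and 4.01, 6.22, 7.24, 6.45 and 6.60 in control. Control replicate 1 stood lowest, 3 controls lay below every day 30 array, and control replicate 3 lay above all but 2 of them. The mean was 6.64 ± 0.38 at day 10, 7.14 ± 0.59 at day 30 and 6.10 ± 1.23 in control (SD, n = 5 each). The difference from control was 0.54 at day 10 (SE 0.47, limma adjusted p = 1.00) and 1.04 at day 30 (SE 0.47, 95% interval 0.04 to 2.03), a ratio of 2.05 (limma adjusted p = 0.927). Without control replicate 1 these were 0.01 and 0.51, and with slide as a block the day 30 difference was 0.37.

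Il9r encodes the private chain for IL-9, a cytokine best known from mast cells, Th9 cells and innate lymphoid cells. Its brighter probe, at chr11:32089002-32089061 on the minus strand, was well above background on 4 arrays at day 10, 2 at day 30 and 3 in control. Levels were -1.60, -5.78, -1.98, -0.30 and -3.73 at day 10, -1.83, -3.74, -4.66, -4.30 and -2.07 at day 30, and -0.37, -0.55, -4.24, -5.55 and -2.48 in control. Low and high arrays occurred in every group, and the differences from control were -0.04 at day 10 and -0.68 at day 30 (SE 1.16 each, limma adjusted p = 1.00 and 0.983). The other probe, at chr11:32090499-32090558 on the minus strand, was well above background on 0 arrays at day 10, 0 at day 30 and 2 in control, and no fold could be formed for it.

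**Figure D2:**
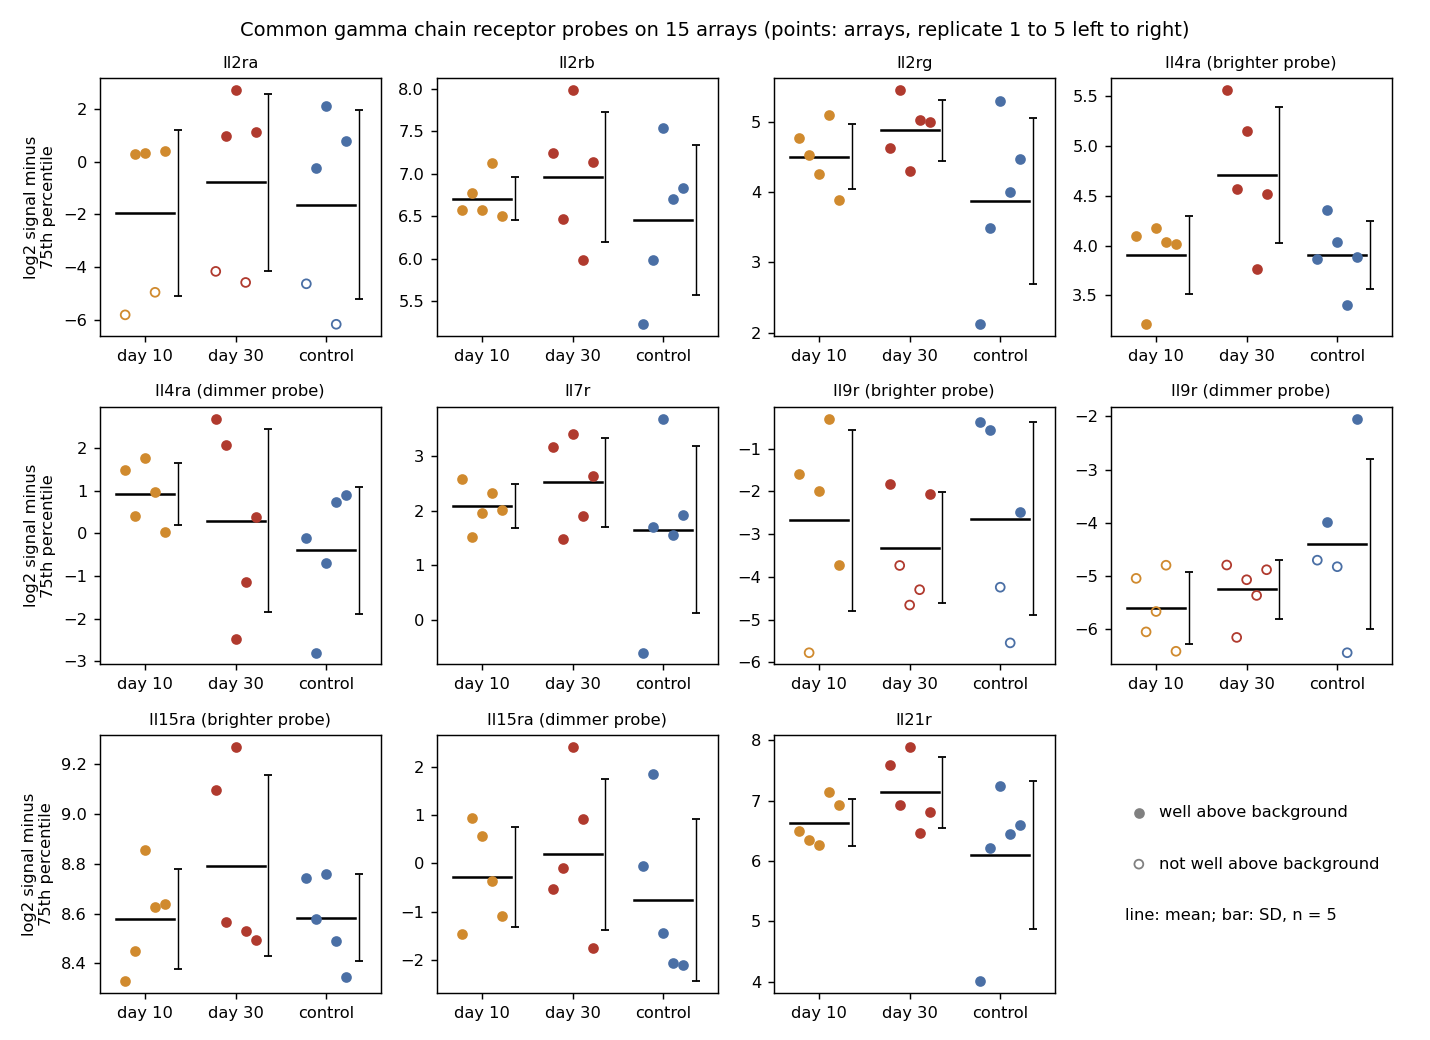
Levels of all 11 receptor probes on the 15 arrays, 1 panel per probe, in log2 units relative to the array's 75th percentile (vertical axes differ); points are arrays, filled where well above background, with lines for means and bars for SD (n = 5). The groups overlap in each panel; Il2ra splits into a detected and an undetected set in each group, and control replicate 1, leftmost among the control points, is the lowest array for Il2rb, Il2rg, Il7r and Il21r.

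The order of the group means was the same for Il2rg, Il2rb, Il7r and Il21r, with day 30 highest and control lowest. For Il15ra and Il4ra, on their brighter probes, day 30 was also highest, with day 10 and control at equal means to 1 decimal, for Il2ra day 30 was highest and day 10 lowest, and for Il9r day 30 was lowest and control highest. On the dimmer Il4ra probe day 10 was highest, at a mean of 0.93, against 0.30 at day 30 and -0.40 in control. No neighbours in any of these orders differed by an adjusted p under 0.05 in limma. Over the 8 receptors, day 30 had the higher mean in 7 against control, where 50.2% of all genes tested had one, and the median difference was 0.82 against 0.00 over all genes. Day 30 against day 10 gave 7 of 8, against 53.1% of all genes, with medians of 0.41 and 0.06. Day 10 against control gave 4 of 8, against 49.9% of all genes, with medians of 0.12 and -0.00. These medians rested on few arrays and on the scaling. Without control replicate 1 the day 10 median against control was 0.0012 and the day 30 median 0.28, without control replicate 3 they were 0.57 and 1.08, and without day 30 replicate 3 the median of day 30 against day 10 was 0.25. With the share of detected spots as a covariate the medians against control were -0.081 at day 10 and -0.040 at day 30, and that of day 30 against day 10 was -0.20. These comparisons share samples: the first and the last use the same controls. The 3 receptors at an unadjusted p under 0.05 against control were Il4ra, Il21r and Il2rg, and the 1 against day 10 was Il4ra. In no comparison did a receptor's groups fail to overlap, which 0.208% of genes did with day 30 above control, 0.119% with day 10 above control and 0.281% with day 30 above day 10, and 0.4%, 0.3% and 0.292% in the other direction.

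**Figure D3:**
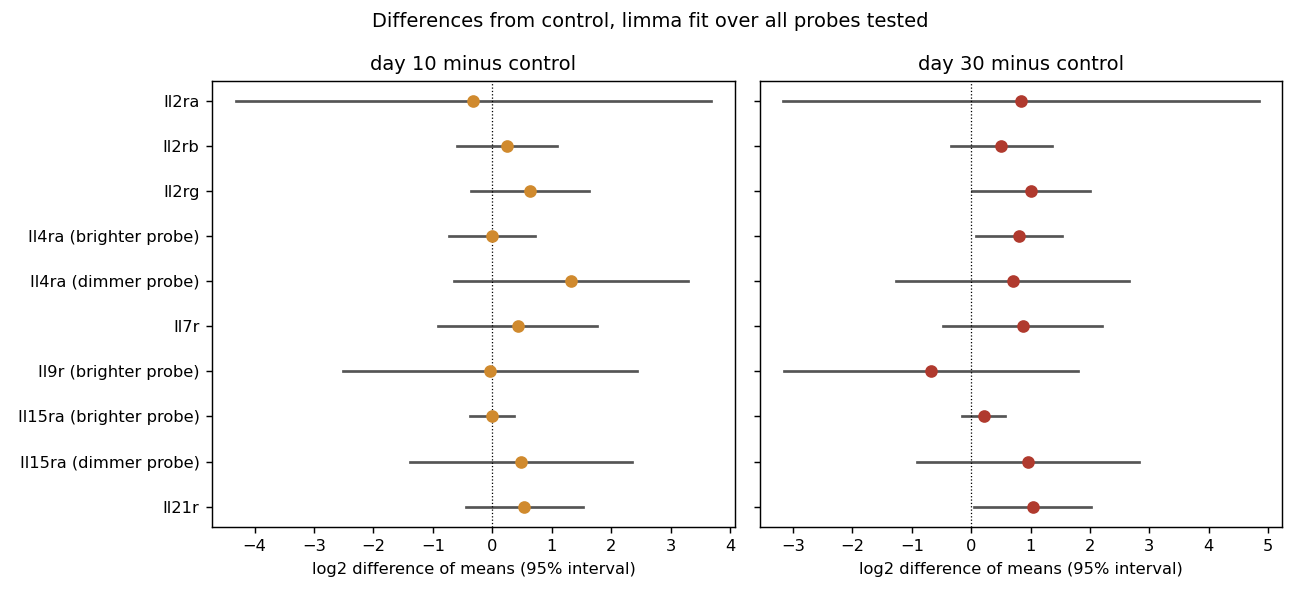
Differences of mean log2 level from control at day 10 (left) and day 30 (right) for the 10 receptor probes tested; points are estimates and bars are 95% intervals from the limma fit over all probes tested, and the dotted line marks 0. At day 30 the brighter Il4ra probe, Il21r and Il2rg have intervals just above 0 before adjustment, and the intervals of Il2ra and Il9r span several log2 units.

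The level of several receptors went with the share of spots detected on an array. How many of all genes did so was not counted, so the relation is not shown to be particular to receptors. With each group's mean removed, Il2rb had a Pearson r of -0.903 with that share over the 15 arrays (Spearman rho -0.889), Il21r -0.904 (rho -0.761) and Il7r -0.879 (rho -0.711). Permutation p-values for r, adjusted over the 12 relations, were 0.00048, 0.00132 and 0.00666, and those for rho were 0.00168, 0.0136 and 0.0326. Without control replicates 1 and 2, the arrays farthest from the median share, r was -0.874, -0.811 and -0.785. Within slide 1 it was -0.929, -0.923 and -0.893, and within slide 2 -0.980, -0.848 and -0.827. Il2rg had r = -0.692 (rho -0.336, adjusted permutation p = 0.110 and 0.355). With the same group means removed, its r was -0.387 without control replicates 1 and 2, and 0.297 within slide 2. The part of any single array in it was not tested. For Il2ra r was -0.542, for the brighter probes of Il4ra and Il15ra -0.345 and -0.217, and for Il9r 0.240, with adjusted permutation p of 0.110, 0.228, 0.478 and 0.520 (rho -0.600, -0.368, -0.418 and 0.168). The mean detected share was lowest at day 30, the group in which Il2rb, Il21r and Il7r had their highest means.

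**Figure D4:**
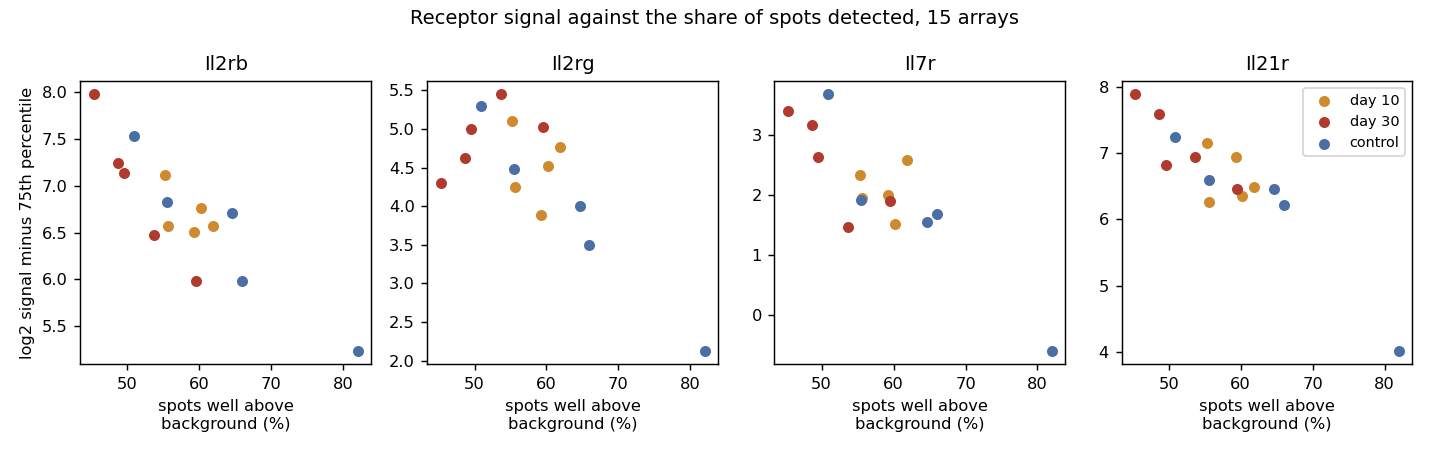
Level of Il2rb, Il2rg, Il7r and Il21r (vertical axes, log2 units relative to the array's 75th percentile) against the percentage of spots well above background (horizontal axes) on 15 arrays; each point is an array, coloured by group. Levels of Il2rb, Il7r and Il21r are lower where more spots are detected. Control replicate 1, at 82.0%, lies apart at the lower right of each panel, and the r of Il2rg is weaker without it and control replicate 2.

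The day 30 differences depended on how arrays were put on a common scale. With the detected share as a covariate in the limma fit, day 30 minus control was 0.14 for Il2rg, -0.15 for Il21r, -0.58 for Il7r, -0.49 for Il2rb and 0.53 for the brighter Il4ra probe. In the deposited value table, where the median of all genes was at -0.25, they were 0.15 for Il2rg, 0.26 for Il21r, 0.03 for Il4ra, 0.08 for Il7r and -0.10 for Il2rb. With the 75th percentile taken over probes detected on all arrays, where the median of all genes was at -0.38, they were 0.62 for Il2rg, 0.65 for Il21r, 0.42 for Il4ra, 0.48 for Il7r and 0.12 for Il2rb. Relative to those medians all 5 remained above the typical gene. Slide as a block gave 1.03 for Il2rg, 0.61 for Il4ra, 0.72 for Il7r and 0.33 for Il2rb, and it rests on the day 10 arrays, which alone link the slides. Within slide 2, day 30 minus day 10 was 0.69 for Il4ra, 0.39 for Il2rg, 0.35 for Il7r, 0.15 for Il2rb and 0.10 for Il21r, and within slide 1, day 10 minus control was -0.08, 0.64, 0.37, 0.18 and 0.27 for the same genes in that order.

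**Figure D5:**
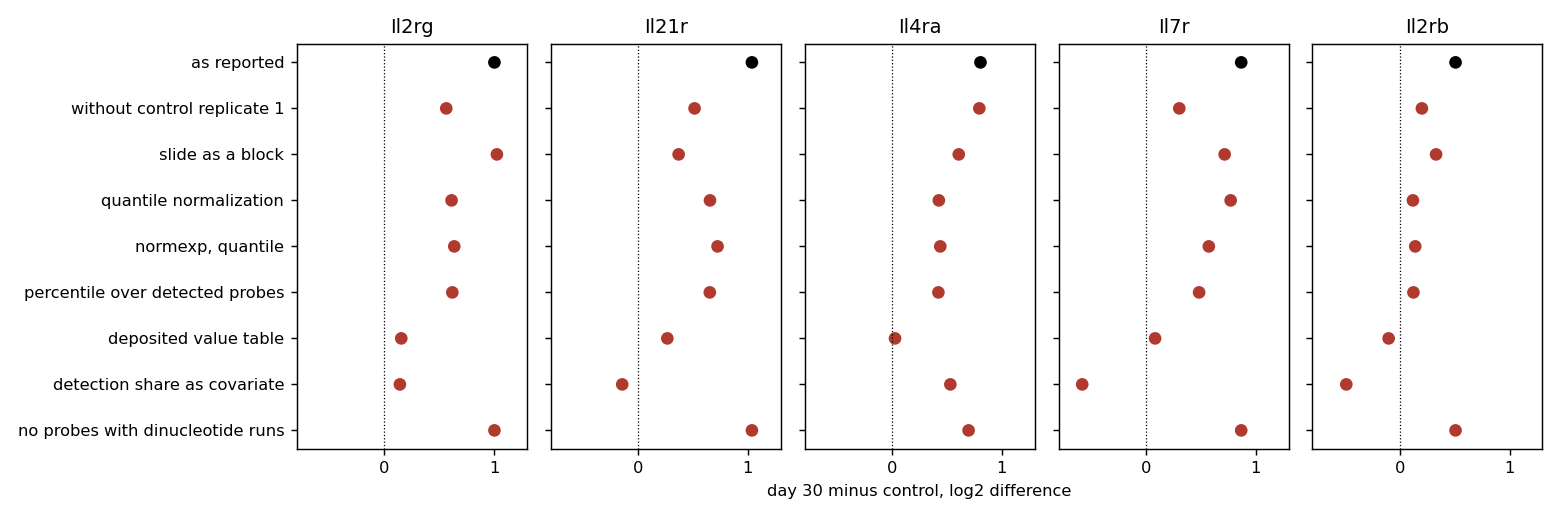
Day 30 minus control, in log2 units (horizontal axes), for Il2rg, Il21r, Il4ra, Il7r and Il2rb as reported (black) and under other settings (red), 1 row per setting. Il2rg and Il4ra stay on the positive side in every row shown, and Il21r, Il7r and Il2rb cross 0 with the detected share as a covariate, Il2rb also in the deposited value table.

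Some receptors varied together from array to array. With each group's mean removed, Il7r and Il21r correlated at a Pearson r of 0.887, Il2rb and Il21r at 0.861 and Il2rb and Il7r at 0.857 over the 15 arrays, which share their scaling and the relation with the detected share given above. Il2rg correlated with Il21r at 0.650, with Il7r at 0.623 and with Il2rb at 0.533. The brighter probes of Il4ra and Il15ra correlated with each other at 0.646 and with Il2rg at -0.160 and -0.367. No background from random gene pairs was computed for these r. Among 6260 named genes well above background on all 15 arrays, those most like Il2rg were Pdcd10 at r = 0.927, Arhgap31 at 0.924, Eif4g3 at 0.901, Cd2 at 0.896 and Wdr1 at 0.888. Cd2 encodes an adhesion receptor of T and NK cells, and Wdr1 a factor that helps to take actin filaments apart.

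Most of the cytokine genes that belong to these receptors were detected on few arrays. Of 8 cytokine genes, Il15 was well above background on 0 of the 15 arrays, Il7 on 2, Il4 on 3, and Il9, Il13 and Il21 on 4 each, which left Il2, on 7, and Tslp, on 9, to be tested. Il2 averaged -4.54 ± 2.09 at day 10, -3.77 ± 3.12 at day 30 and -4.20 ± 1.96 in control (SD, n = 5 each). Tslp encodes an epithelial cytokine whose receptor pairs Il7r with Crlf2. It averaged -1.87 ± 1.94, -3.66 ± 2.08 and -2.69 ± 2.63 at day 10, day 30 and in control (SD, n = 5 each). Neither passed the test, with differences from control of -0.34 and 0.44 for Il2 and 0.82 and -0.97 for Tslp at day 10 and day 30. Of the partner chains outside the family, Crlf2 had differences from control of 1.10 at day 10 and 0.62 at day 30, and Il13ra2, the decoy receptor for IL-13, -0.14 and 0.31, and 0 of the 2 tested passed.

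Among the kinases and STATs below the receptors, 17 of 19 genes were tested and 0 passed the test in any comparison. Of the 17, 10 had a higher mean at day 10 than in control and 11 a higher mean at day 30, with median differences of 0.08 and 0.37. Without control replicate 1 these medians were -0.058 and -0.027, and with the detected share as a covariate -0.091 and -0.34. Stat6, which carries the signal of IL-4, averaged 3.64 ± 0.55 at day 30 and 2.41 ± 1.44 in control (SD, n = 5 each), a difference of 1.23. Stat5b, which carries those of IL-2, IL-7 and IL-15, differed by 1.21 (3.88 ± 0.99 at day 30, 2.67 ± 1.46 in control). At day 10, Tyk2, a Janus kinase of other cytokine receptors, was 2.90 above control (SE 1.44). Pik3ca, a catalytic subunit of PI 3-kinase, differed from control by -2.73 at day 10 (SE 1.39). Between day 30 and day 10, Jak2 differed by 0.82 and Irs2, an adaptor of the insulin and IL-4 receptors, by -0.82.

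Inhibitors and target genes had higher means in some genes and lower means in others, and 0 of either list passed. Of 15 inhibitors, all tested, 10 had a higher mean at day 10 than in control and 6 at day 30, with medians of 0.28 and -0.21. Neither median kept its sign when single arrays were left out: the day 10 median ran from -0.21, without control replicate 1, to 0.54, and the day 30 median from -0.62 to 0.28, without day 30 replicate 1. Sh2b3, the adaptor LNK that restrains JAK signalling, averaged -4.25 ± 1.70 at day 10, -1.05 ± 2.65 at day 30 and -4.67 ± 1.95 in control (SD, n = 5 each), and was well above background on 2, 4 and 1 arrays of these groups. Pias4 differed from control by 1.69 at day 10 and 2.44 at day 30 (SE 1.19 each). Socs2, which is induced by STAT5, was 1.03 above control at day 10 and differed by -1.24 between day 30 and day 10.

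Of 26 target genes, 25 were tested, and 11 had a higher mean at day 10 than in control and 13 at day 30, with medians of -0.08 and 0.03. With single arrays left out they ran from -0.15 to 0.12 and from -0.28 to 0.15. Ccnd2 encodes cyclin D2, which drives T cells into division and is induced by IL-2. It averaged 2.63 ± 0.69 at day 10, 2.73 ± 0.90 at day 30 and 0.93 ± 1.12 in control (SD, n = 5 each), and its differences of 1.70 and 1.80 had the smallest unadjusted p of this list in both comparisons with control. Myc, which IL-2 also induces, differed by -2.81 at day 10 from control and by 2.06 between day 30 and day 10 (SE 1.28 each). It was well above background on 3 arrays at day 10. Batf, a partner of IRF4 in IL-21 responses, differed from control by -1.22 at day 30 (SE 0.72). Gfi1 differed by 2.33 between day 30 and day 10 (SE 1.33), and was well above background on 2 arrays at day 10 and 4 at day 30. The limma adjusted p of these genes was above 0.05 in every comparison.

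Markers of T cells and of other cells were read in the same way, and 0 passed the test. The 8 T cell markers all had a higher mean at day 30 than in control, with a median difference of 0.59. That median was 0.16 without control replicate 1, -0.31 with the detected share as a covariate and -0.21 in the deposited value table. Their mean level per array ran from 2.49 to 3.66 at day 10, 2.77 to 4.31 at day 30 and 1.60 to 4.17 in control. Thy1 averaged 5.40 ± 0.27 at day 30 and 4.48 ± 0.61 in control, and Cd5 3.01 ± 0.82 at day 30 and 1.52 ± 1.26 in control (SD, n = 5 each). Of 6 regulatory T cell markers, a list that includes Il2ra, 2 had a higher mean at day 30 than in control, and Foxp3 averaged -0.84 ± 0.80 at day 30 and 0.80 ± 1.39 in control. Of the macrophage and dendritic cell markers, 5 of 7 tested were higher in the mean at day 30 than in control, with array means from -0.70 to 0.94 at day 30 and -1.55 to 0.19 in control. The median difference of these 7 was 0.56, and -0.30 without control replicate 5. Cd74, the invariant chain of MHC class II, averaged 3.98 ± 0.79 at day 30 and 1.44 ± 1.33 in control, the largest difference of the 7. Csf1r and Cd68 went the other way, with differences of -0.21 and -0.48. Of the B cell and plasma cell markers 5 of 6 tested were higher in the mean, with array means from -0.78 to 1.21 at day 30 and -1.53 to -0.08 in control, and Ms4a1 was well above background on 0 arrays.

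The remaining marker lists were split. At day 30 against control 3 of 9 cytotoxic cell markers, 4 of 7 innate lymphoid markers, 0 of 1 mast cell and granulocyte marker and 4 of 7 epithelial markers had the higher mean, with medians of -0.25, 0.47, -0.78 and 0.24. The innate lymphoid median was -0.13 without day 30 replicate 1, the mast cell value 0.048 without control replicate 2 and the epithelial median -0.41 without day 30 replicate 3. Kit averaged -3.35 ± 0.92 at day 30 and -0.54 ± 2.04 in control, and Areg -1.27 ± 3.88 at day 30 and 2.06 ± 0.98 in control (SD, n = 5 each). At day 10 against control the medians of the 8 marker lists ran from -0.32 for innate lymphoid cells to 0.77 for the single mast cell marker tested, and without control replicate 3 the innate lymphoid median was 0.30. None of these markers passed the test, and their part in the receptor differences was not tested.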

How the data were processed

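Scanner files of 15 one-colour arrays were used, with groups taken from the sample titles. Per the file headers, the authors' linear intensity values were made with Agilent Feature Extraction 10.7.3.1 on a grid of build mm9, with background subtracted and no scaling between arrays. The deposited value table holds log2 values that were used only as an alternative, and the sources used here do not give its further steps. SuperAmp amplification preceded labelling, per the labels' protocols. Of 62976 spots per array, 59305 were not controls; 0 spots were saturated, and outlier spots left 46 probe values missing. On each array the 75th percentile of log2 processed intensity was subtracted. Spots of a probe were averaged, and a gene was read from its probe of highest mean signal. RefSeq names were found for 29577 probes. Genes above background on at least 5 arrays entered 1 fit of the 15 arrays (R 4.3.3, limma 3.58.1, intensity trend, two-sided, Benjamini-Hochberg over 25997 genes, threshold 0.05), after a check on simulated data. The number of arrays limits the precision. The receptors, gene lists and tests were chosen with earlier results of these data known. All receptors and probes are named; of each pathway list, the 2 genes of smallest unadjusted p in a comparison are, with the 5 genes most like Il2rg. The marker genes Cd4, Thy1, Cd5, Foxp3, Cd74, Csf1r, Cd68, Kit, Areg and Ms4a1, the cytokines not tested, and Tnfrsf9 and Bcl2 were named outside this rule, after their values were seen. No genome of build mm9 was used, so exon and UTR positions of probes are not given.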

Additional observations from a re-analysis of the deposited data

Results flagged for a closer look

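Day 10 replicate 2 stood apart from the rest of its group on the brighter Il4ra probe, at 3.21, where the other day 10 arrays lay between 4.02 and 4.17. It was the only one of 36 sets of 5 values examined in which the gap to the nearest array exceeded the critical share of the range, and chance alone gives about 1 in 20. Without that array the day 10 difference from control was 0.17 and the difference of day 30 from day 10 was 0.63.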

How the results depend on the processing

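No receptor passed the limma threshold under any alternative tried, and the number at an unadjusted p under 0.05 ranged over 0 to 1 at day 10, 0 to 4 at day 30 against control and 0 to 1 at day 30 against day 10. Over all genes, slide as a block called 1 gene at day 30 against control, Vkorc1l1 (-12.7, adjusted p = 0.00864), and leaving out day 10 replicate 4 called 2 at day 30 against day 10, As3mt (-5.55) and Suclg2 (-5.27, adjusted p = 0.0287 for both), all 3 named after their values were seen; without other single replicates the count was 0. Same-numbered arrays had correlations of -0.21 to 0.21, so the numbers were not taken to pair the samples, and the fit with a replicate block called 0 receptors. Its differences, 1.00 for Il2rg and 0.81 for Il4ra at day 30 against control, are those of the main fit by design. Each group holds each number once, so such a block cannot change them and they are no check.

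Signs of receptor differences turned in these cases, and the cause was not tested. For day 10 minus control they were Il2ra at 0.10 and Il15ra at 0.022 with quantile normalization, Il9r at 0.025 with dim values raised to the array's lowest signal above background, Il4ra at 0.66 and Il15ra at 0.24 with the mean of a gene's probes, Il4ra at 1.32 and Il15ra at 0.48 with the dimmer probe or without probes holding TG or CA runs (both alternatives chosen after seeing the data), and Il2rb at -0.18, Il7r at -0.19 and Il9r at 0.28 with the detected share as a covariate. For day 30 minus control they were Il15ra at -0.18 with the percentile over detected probes, -0.017 with normexp and -0.23 in the deposited table, Il2rb at -0.10 in that table, and Il2ra at -2.09, Il2rb at -0.49, Il7r at -0.58, Il9r at 0.068 and Il21r at -0.15 with the covariate. For day 30 minus day 10 they were Il2rb at -0.000855 and Il15ra at -0.0140 with quantile normalization, Il2rb at -0.036 and Il15ra at -0.082 with the percentile over detected probes, Il15ra at -0.0119 with normexp, Il2rb at -0.13, Il2rg at -0.12, Il7r at -0.11 and Il15ra at -0.18 in the deposited table, Il2ra at -0.52, Il2rb at -0.31, Il2rg at -0.12, Il7r at -0.39 and Il21r at -0.18 with the covariate, and Il4ra at -0.63 with the dimmer probe or without probes holding TG or CA runs. Leaving out single replicates gave day 10 differences from control of -1.46 to 0.65 for Il2ra, -0.058 to 0.52 for Il2rb, -0.13 to 0.17 for Il4ra, -0.14 to 0.94 for Il7r, -0.77 to 0.74 for Il9r and -0.074 to 0.058 for Il15ra, and a day 30 difference of -0.30 to 1.79 for Il2ra. The filter on all 15 arrays left out Il2ra and Il9r.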

Other observations

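Runs of the complementary unit CA showed the same order of spot signal as runs of TG, and no receptor probe held one longer than 4 bases. Probes with a CA run of at most 6 bases had a median of -3.00 (n = 55436), and the medians were -0.03 at 8 bases (n = 155), 2.41 at 10 (n = 29), 4.39 at 12 (n = 18), 7.31 at 14 to 16 (n = 17) and 8.81 at 18 or more (n = 26). Runs of 10 or more bases of either unit were in 265 probes, or 0.476% of the array. Of the other genes listed with the receptors, Tnfrsf9, which encodes the costimulatory receptor 4-1BB, was read from a probe with a TG run of 20 bases and Bcl2, a survival gene, from one with a run of 8.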
